A study of Mus musculus with 6 samples.

Results

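The transcripts described here code for the core of the machinery with which the cell enters mitosis. They are the B-type cyclins Ccnb1, Ccnb2 and Ccnb3, cyclin A2 (Ccna2), the cyclin-dependent kinase Cdk1, the activating phosphatases Cdc25a, Cdc25b and Cdc25c, and the inhibitory kinases Wee2 and Pkmyt1. They were taken by gene symbol and are 10 of the 25731 genes in the expression table. Mouse zygotes were examined after ZP3 Trim-away, a method in which the ubiquitin ligase TRIM21 binds an injected antibody and hands the antibody's target, here the zona pellucida protein ZP3, to the proteasome. All zygotes were wild-type B6C3F1 x CD1 and came from oviducts of mated, hormone-primed females. At 15 h after hCG, those of the ZP3 Trim-away group received mCherry-Trim21 mRNA at 0.2 mg/mL, Oregon Green dextran at 0.02 mg/mL and anti-ZP3 antibody at 1 mg/mL. Those of the control group received the same mRNA and dextran with antibody buffer instead, so every library carries injected Trim21 mRNA and none is from an uninjected zygote. Pools of 13 embryos were lysed 10 h after injection, at the pronuclear stage before the first cleavage, and gave 3 libraries per group.

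Entry into mitosis depends on CDK1 bound to cyclin B. WEE kinases and PKMYT1 hold the complex inactive by phosphorylating CDK1, and CDC25 phosphatases remove those phosphates. In the mouse egg and zygote most of these proteins are made from messages stored by the oocyte, and WEE2 is the WEE kinase specific to oocytes and zygotes.

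The levels are RPKM, reads scaled by exon length and library size. Library totals were between 17378251 and 20005723 reads in the controls and between 15291001 and 15746634 reads after ZP3 Trim-away. As deposited, the columns of control replicates 2 and 3 were means with control replicate 1. Of 13202 genes above 0 in control replicate 1, none was below 0.5 times its value in either column, and 2059 and 2090 sat at exactly 0.5 times. Each was therefore separated as 2 times the column less replicate 1. Before the separation 11.2% and 10.5% of the values in these columns corresponded to whole reads, and after it 95.1% and 95.3% did, within 0.01 of a read. All levels below are separated ones, and the calls that return with the columns as deposited are given beside the genes.

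Trim21 took 14.6% to 18.1% of the reads in the controls and 9.12% to 11.0% after ZP3 Trim-away. Zp3 mRNA, which the antibody does not address, was at 31.3, 55.6 and 39.9 RPKM in the controls, against 46.5, 58.9 and 52.7 RPKM after ZP3 Trim-away. The 11 oocyte and zygote markers were above 1 RPKM in all 6 libraries, with summed levels of 7980 to 9647 RPKM in the controls and 10599 to 12438 RPKM after ZP3 Trim-away. Dppa3 was the largest part of the sum, at 3709 to 4926 RPKM in the controls and 5200 to 6552 RPKM after ZP3 Trim-away. Dppa3, Btg4, Bmp15, Nlrp5, Ooep and Padi6 were higher after ZP3 Trim-away without overlap. Zp1, Zp2, Zp3, Gdf9 and Oosp1 overlapped between the groups. Of the cumulus and granulosa markers, 9 of 11 were in the table, with summed levels of 8.44 to 17.1 RPKM in the controls and 16.1 to 25.4 RPKM after ZP3 Trim-away. Between 2 and 5 of them were above 0 in a control library and between 7 and 8 in a ZP3 Trim-away library. Inha was at 0 in every control and at 2.32, 2.80 and 7.49 RPKM after ZP3 Trim-away. Tnfaip6 was at 0, 0 and 1.68 RPKM in the controls, against 3.57, 6.95 and 6.92 RPKM, and Gja1 at 0, 0 and 0.757 RPKM, against 1.15, 1.43 and 4.61 RPKM. These markers were higher after ZP3 Trim-away without overlap, while Cyp19a1 was lower, at 8.04 to 10.0 RPKM in the controls and 4.60 to 6.43 RPKM after ZP3 Trim-away. Inhba overlapped, at 5.43, 0 and 0.0180 RPKM in the controls, against 1.06, 1.36 and 1.27 RPKM. Ptgs2 did too, at 1.78, 0.404 and 0 RPKM, against 1.44, 0.305 and 0.214 RPKM, and so did Has2, at most at 0.278 RPKM. The defining granulosa genes Foxl2 and Fshr were at 0 in all libraries but ZP3 Trim-away replicate 2. Of the sperm markers, 3 of 7 were in the table, summing to 2.39 to 7.77 RPKM in the controls and 1.58 to 2.09 RPKM after ZP3 Trim-away. The oviduct markers in the table, 2 of 5, summed to at most 1.42 RPKM in any library. The part of these differences in the results on the mitotic entry genes was not tested. In pools of whole zygotes, fewer contributing cells and less RNA per cell cannot be told apart.

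Stored messages of this pathway are known in oocytes to be translated through cytoplasmic polyadenylation elements, short U-rich motifs of the 3′ untranslated region that CPEB binds. In the annotated transcripts, TTTTAT or TTTTAAT was present in this region in 7 of the 10 genes and was not found in Cdc25b, Cdc25c or Pkmyt1. Of 3′ untranslated regions of like length, 61.9% held such a motif at the length of Ccnb1, 19.1% at that of Ccnb2, 20.0% at that of Ccnb3, 71.4% at that of Ccna2, 92.0% at that of Cdk1, 78.3% at that of Cdc25a and 55.9% at that of Wee2. At the lengths of Cdc25b, Cdc25c and Pkmyt1 the shares were 65.1%, 22.0% and 12.8%. In 5 genes, Ccnb1, Ccnb2, Ccnb3, Ccna2 and Wee2, the motif lay within 100 bases of the sequence of a polyadenylation signal, AATAAA. Of regions of like length, 27.1%, 10.9%, 11.6%, 30.9% and 24.8% held the motif so placed. In Ccnb1, Ccnb2 and Ccna2 that AATAAA was not the last one. Their elements nearest an AATAAA began 144, 186 and 1180 bases from the annotated end, and their last AATAAA 24, 19 and 26 bases from it. In Wee2 the element shown lies after the AATAAA. These windows are shown because they carry the element nearest such a signal, with both motifs in capitals, sense strand, 5′ to 3′.
Ccnb1: ttgctgTTTTAATttatacatctgatatca
Ccnb2: tatgtaTTTTATtctagtttacatcacaaa
Ccnb3: aattacTTTTATgaaagaagagaaattgtt
Ccna2: ggataaTTTTAATtggttaacattggtgct
Wee2: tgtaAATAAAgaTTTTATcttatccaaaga
Wee2 held its element closest to the annotated end, with the last copy 18 bases from it, and that of Ccnb3 began 68 bases from the end. These 2 were the only members with the motif in the last 100 bases, against 17.8% of 19841 annotated 3′ ends.

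Promoters of genes expressed late in the cell cycle are known to carry pairs of CCAAT boxes, bound by NF-Y, and a cell cycle homology region TTTGAA. RefSeq promoters (GRCm38.p6, 250 bases before and 50 after the start) were matched for 7 of the 10 genes. CCAAT on either strand was in 6 of them, against 37.4% of 32851 promoters, and TTTGAA was in Ccnb2 and Cdk1, against 17.9%. In Ccnb1, Ccnb2 and Cdk1, neighbouring CCAAT boxes were 32 or 33 bases apart. Of all promoters 0.566% had such a spacing, which was noticed in these genes first. The pairs are shown with CCAAT, its reverse ATTGG and TTTGAA in capitals.
Ccnb1, chr13:100786544-100786590, minus strand: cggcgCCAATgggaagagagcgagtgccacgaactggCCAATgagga
Ccnb2, chr9:70421599-70421646, minus strand: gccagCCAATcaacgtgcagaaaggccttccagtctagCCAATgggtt
Cdk1, chr10:69352951-69352997, minus strand: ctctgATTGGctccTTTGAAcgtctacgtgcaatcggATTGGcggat
The genes with the paired boxes were not alike in level, since Ccnb1 and Ccnb2 were among the most abundant members and Cdk1 was not.

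No mitotic entry gene passed the test between the groups. All 10 had a mean of at least 1 RPKM and were tested, and 0 of 10 reached an adjusted p of 0.05 in limma, where 0.632% of the 9965 genes tested did, 0.592% with a higher and 0.0401% with a lower level after ZP3 Trim-away. At an unadjusted p of 0.05, 2 members passed, Cdk1 and Cdc25a, beside 19.5% of all genes tested. The log2 fold changes of the members were positive in 6 and negative in 4, beside 6709 positive and 3256 negative over all genes tested. Their median was 0.14, beside 0.22 over all genes tested. The groups did not overlap in 3 members, with Ccnb3 and Pkmyt1 higher and Cdc25a lower after ZP3 Trim-away. Over all genes tested, 26.7% did not overlap, 20.3% higher and 6.34% lower. Since the median of all genes lay above 0, each fold change was also set against it. On this relative log2 scale Cdk1 stood at 0.44, Pkmyt1 at 0.41, Ccnb3 at 0.22 and Cdc25c at 0.10. Ccnb1 stood at -0.01, Wee2 at -0.15, Ccnb2 at -0.23, Cdc25b at -0.45, Ccna2 at -0.58 and Cdc25a at -0.82.

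**Figure D1:**
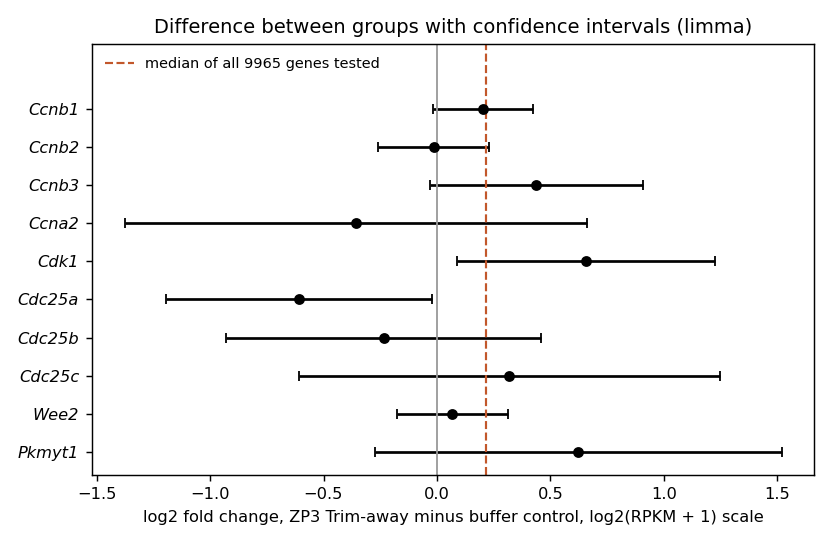
Log2 fold change (ZP3 Trim-away minus buffer control, log2(RPKM + 1) scale) of the 10 mitotic entry genes, with bars for the 95% confidence interval of limma and a line for the median of all genes tested. Cdk1, at 0.66, and Cdc25a, at -0.61, are the members whose intervals leave 0, and no gene reached an adjusted p of 0.05.

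Ccnb1, the main cyclin partner of CDK1 at mitotic entry, was the most abundant member. It was at 494.8, 565.9 and 514.1 RPKM in control replicates 1 to 3, against 631.1, 626.2 and 556.9 RPKM in ZP3 Trim-away replicates 1 to 3. The groups overlapped, because control replicate 2 exceeded ZP3 Trim-away replicate 3. The means were 524.9 ± 36.8 and 604.7 ± 41.5 RPKM (SD, n = 3 each), and the log2 fold change of 0.20 ± 0.10 (SE) did not pass the test in limma (adjusted p = 0.293). At this depth 35908 to 47743 reads stood behind each value. Of the 72-base words of its longest annotated transcript, 36.0% also occurred in 5 other genes, among them the processed copies Ccnb1-ps and Gm12856. Ccnb1-ps was at 16.5 ± 0.989 RPKM in the controls and 16.9 ± 2.60 RPKM after ZP3 Trim-away, and Gm12856 at 19.3 ± 0.738 and 21.9 ± 1.08 RPKM (SD, n = 3 each). How reads were split between Ccnb1 and these copies is uncertain.

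Ccnb2, the B-type cyclin that in the mouse is dispensable where Ccnb1 is not, was at 200.5, 176.7 and 180.9 RPKM in the controls, against 193.5, 170.2 and 188.8 RPKM after ZP3 Trim-away. The ranges almost coincided. Its log2 fold change was -0.01 ± 0.11 (limma, adjusted p = 0.957), with a 95% interval from -0.26 to 0.23. When libraries were scaled by median ratios, the groups of Ccnb2 no longer overlapped and its level was lower after ZP3 Trim-away, at 180.8, 158.9 and 177.5 against 220.1, 185.0 and 191.8. With that scaling 11.5% of all genes tested were non-overlapping and lower.

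Ccnb3, a B-type cyclin that acts in the meiotic divisions of the oocyte, was at 8.99, 13.1 and 11.3 RPKM in control replicates 1 to 3. After ZP3 Trim-away it stood at 14.1, 16.2 and 15.6 RPKM. All 3 ZP3 Trim-away libraries exceeded all 3 controls, but only by a margin of about 1 RPKM, and the groups overlapped under median ratio scaling and with Trim21 left out of the totals. On the log2 scale the difference was 0.44 ± 0.21 (limma, adjusted p = 0.289). With the control columns as deposited it was 0.56 and passed (limma, adjusted p = 0.0128), as did Ccnb1 at 0.24 (limma, adjusted p = 0.0276), where 37.3% of all genes tested passed, 25.5% higher and 11.8% lower.

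Ccna2, the cyclin of S phase and early mitosis, varied more among the controls than any difference between the groups. It was at 15.2, 6.64 and 3.50 RPKM in the controls, against 7.19, 5.23 and 4.16 RPKM after ZP3 Trim-away. Control replicate 1 stood high and control replicate 3 was the lowest of the 6 libraries. The coefficient of variation was 71.6% in the controls, where counting alone would give 3.93%. The log2 fold change was -0.36 ± 0.45 (limma, adjusted p = 0.698), and without control replicate 1 it was 0.13. With the columns as deposited, in which replicate 1 entered all 3 control values, it was -0.97 and passed (limma, adjusted p = 0.00951). The neighbour Exosc9 overlaps Ccna2 on the opposite strand and shared 15.3% of its 72-base words. Exosc9 was at 6.67, 5.34 and 8.40 RPKM in the controls, against 8.97, 9.51 and 10.4 RPKM after ZP3 Trim-away, and reads of the overlap cannot be told apart without strand.

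**Figure D2:**
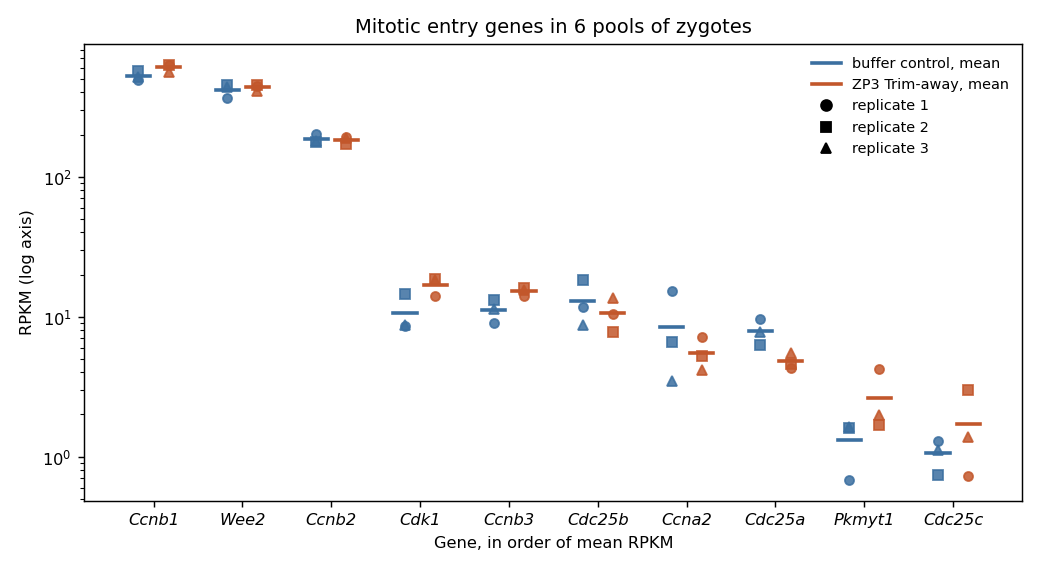
RPKM of each mitotic entry gene in the 3 buffer control and the 3 ZP3 Trim-away libraries on a log axis, 1 point per library and a line for the group mean. Ccnb3 and Pkmyt1 lie higher without overlap after ZP3 Trim-away, Cdc25a lies lower without overlap, and the other 7 genes overlap.

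Cdk1, the kinase itself, had the largest positive fold change of the members on the log2(RPKM + 1) scale, while by the fold of means Pkmyt1 (2.02) and Cdc25c (1.62) stood above it. It was at 8.57, 14.5 and 8.70 RPKM in the controls, against 14.1, 18.6 and 18.2 RPKM after ZP3 Trim-away. Control replicate 2 lay just above ZP3 Trim-away replicate 1, so the groups overlapped, while the other 2 controls lay well below all ZP3 Trim-away libraries. The mean was 1.60-fold higher after ZP3 Trim-away, 16.9 ± 2.51 against 10.6 ± 3.41 RPKM (SD, n = 3 each). The log2 fold change was 0.66 ± 0.25 with a 95% interval from 0.09 to 1.23, and it did not pass after adjustment (limma, adjusted p = 0.201). Without control replicate 2 it was 0.89 (limma, adjusted p = 0.0628), and with the columns as deposited it was 0.76 and passed (limma, adjusted p = 0.00781). Under every other scaling it was smaller than 0.66, and its unadjusted p was above the 0.028 found here (limma). It was 0.48 with median ratio scaling (limma, unadjusted p = 0.083) and 0.50 with quantile normalization (limma, unadjusted p = 0.078). With Trim21 left out of the totals it was 0.56 (limma, unadjusted p = 0.056). With the length trend removed it was 0.50 (limma, unadjusted p = 0.069). None of the 72-base words of Cdk1 was shared with another gene.

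Among the phosphatases, Cdc25a, which activates CDK2 and CDK1, was the one member lower after ZP3 Trim-away without overlap. It was at 9.69, 6.32 and 7.74 RPKM in the controls, against 4.32, 4.56 and 5.54 RPKM after ZP3 Trim-away. The lowest control exceeded the highest ZP3 Trim-away library, and the same held under median ratio scaling and with Trim21 left out of the totals. The mean was 1.65-fold higher in the controls, 7.92 ± 1.69 against 4.81 ± 0.648 RPKM (SD, n = 3 each). The log2 fold change was -0.61 ± 0.26 with a 95% interval from -1.19 to -0.02 (limma, adjusted p = 0.241). With the columns as deposited it was -0.76 and passed (limma, adjusted p = 0.00839). In those columns the SD of the controls was 0.847 RPKM, where the separated values gave 1.69 RPKM.

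Cdc25b, the phosphatase that in mouse oocytes is needed to resume meiosis, was at 11.8, 18.3 and 8.77 RPKM in control replicates 1 to 3. After ZP3 Trim-away it stood at 10.5, 7.80 and 13.6 RPKM. The groups overlapped broadly, and control replicate 2 was the highest library. Its log2 fold change was -0.24 ± 0.30 (limma, adjusted p = 0.708), and without control replicate 2 it was 0.026.

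Cdc25c, the third phosphatase, was the least abundant member. It was at 1.29, 0.742 and 1.12 RPKM in the controls, against 0.723, 3.01 and 1.38 RPKM after ZP3 Trim-away, from 56 to 233 reads per library. ZP3 Trim-away replicate 2 stood above the other 5 libraries. Its log2 fold change was 0.32 ± 0.41 (limma, adjusted p = 0.703), and without that library it was -0.0090. Of its 72-base words 21.5% were shared with Gm3550 on the opposite strand, which was at most at 0.154 RPKM.

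The sum of the 3 Cdc25 genes was 22.8, 25.3 and 17.6 RPKM in the controls, against 15.5, 15.4 and 20.6 RPKM after ZP3 Trim-away. The sums overlapped through control replicate 3 and ZP3 Trim-away replicate 3. Cdc25b was the largest contributor to the sum in all 6 libraries.

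Wee2, the kinase that keeps CDK1 phosphorylated in the oocyte, was the second most abundant member. It was at 366.0, 449.0 and 438.7 RPKM in the controls, against 442.1, 455.4 and 412.5 RPKM after ZP3 Trim-away. Control replicate 1 was the lowest library and the other 5 lay close together. The log2 fold change was 0.07 ± 0.11 with a 95% interval from -0.18 to 0.31 (limma, adjusted p = 0.768). Its sign turned under median ratio scaling, to -0.12, and without control replicate 1, to -0.02.

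Pkmyt1, the membrane-bound kinase that phosphorylates CDK1, was among the least abundant members. It was at 0.680, 1.61 and 1.63 RPKM in the controls, against 4.25, 1.69 and 1.97 RPKM after ZP3 Trim-away, from 46 to 244 reads per library. The groups did not overlap, yet ZP3 Trim-away replicate 2 exceeded control replicate 3 by less than 0.1 RPKM, and the groups overlapped under the other 2 scalings. Its log2 fold change was 0.62 ± 0.39 (limma, adjusted p = 0.423). It was 0.33 without ZP3 Trim-away replicate 1, 0.41 without control replicate 1 and 0.31 with quantile normalization. Pkmyt1 shared 6.11% of its 72-base words with Paqr4 on the opposite strand. Paqr4 was at 0.265, 0.132 and 1.28 RPKM in the controls, against 2.35, 1.30 and 1.51 RPKM after ZP3 Trim-away, so that ZP3 Trim-away replicate 1 was the highest library for both genes.

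**Figure D3:**
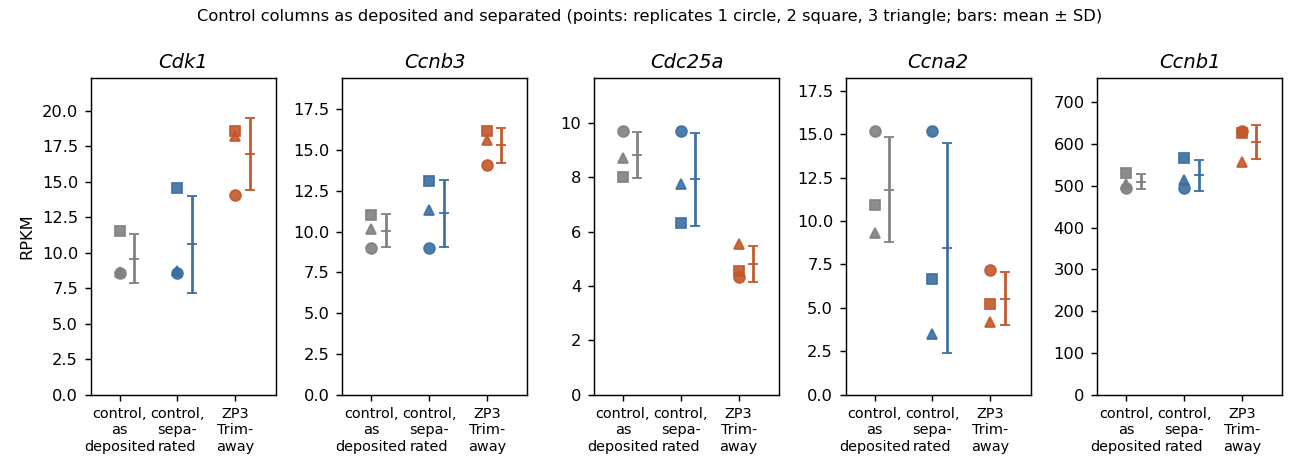
RPKM of 5 mitotic entry genes in the control libraries with the columns as deposited and after separation, beside the ZP3 Trim-away libraries, 1 point per library and bars for the mean ± SD. With the columns as deposited the control points lie closer together, as for Cdc25a with an SD of 0.847 RPKM against 1.69 RPKM after separation.

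The 10 transcripts spanned a wide range of levels per length of exon. By the mean over all 6 libraries, the order from the top was Ccnb1, Wee2, Ccnb2, Cdk1, Ccnb3, Cdc25b, Ccna2, Cdc25a, Pkmyt1 and Cdc25c. Ccnb1, Wee2 and Ccnb2 together made up between 95.0% and 96.4% of the summed RPKM of the 10 genes, which was between 1117 and 1322 RPKM. The ranges over libraries of Ccnb1, Wee2, Ccnb2 and Cdk1 were apart from each other in both groups. In the controls alone the mean of Cdc25b, at 12.9 RPKM, stood above those of Ccnb3 at 11.1 RPKM and Cdk1 at 10.6 RPKM, with overlapping ranges. Cdk1 and Ccnb3 overlapped in both groups, as did Ccna2 and Cdc25a, and Pkmyt1 and Cdc25c. Ccnb3 and Cdc25b, and Cdc25b and Ccna2, overlapped in the controls and were apart after ZP3 Trim-away. Ccnb1 ranked above 99.8% of the genes in the table in every library, and Cdk1 above 85.7% to 91.0% of them.

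Ratios between members within a library are left as they are by a scaling that multiplies all genes of a library by the same factor, but not by quantile normalization or removal of the length trend. Ccnb1 over Ccnb2 was 2.47, 3.20 and 2.84 in the controls and 3.26, 3.68 and 2.95 after ZP3 Trim-away. These ranges overlapped between control replicate 2 and ZP3 Trim-away replicate 3. The inhibitory kinases Wee2 plus Pkmyt1 over the sum of the 3 Cdc25 genes gave 16.1, 17.8 and 25.0 in the controls and 28.8, 29.8 and 20.1 after ZP3 Trim-away. The ratio was above all controls in 2 of 3 ZP3 Trim-away libraries. The B-type cyclins over Ccna2 gave 46.4, 113.9 and 202.1 in the controls and 116.7, 155.3 and 182.8 after ZP3 Trim-away, a spread among controls that covered the other group. Cdk1 over Cdc25a, a pair chosen after their values were seen, was 0.884, 2.30 and 1.12 in the controls and 3.25, 4.07 and 3.29 after ZP3 Trim-away. Being chosen for their opposite fold changes, these genes give a ratio that is a description only.

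**Figure D4:**
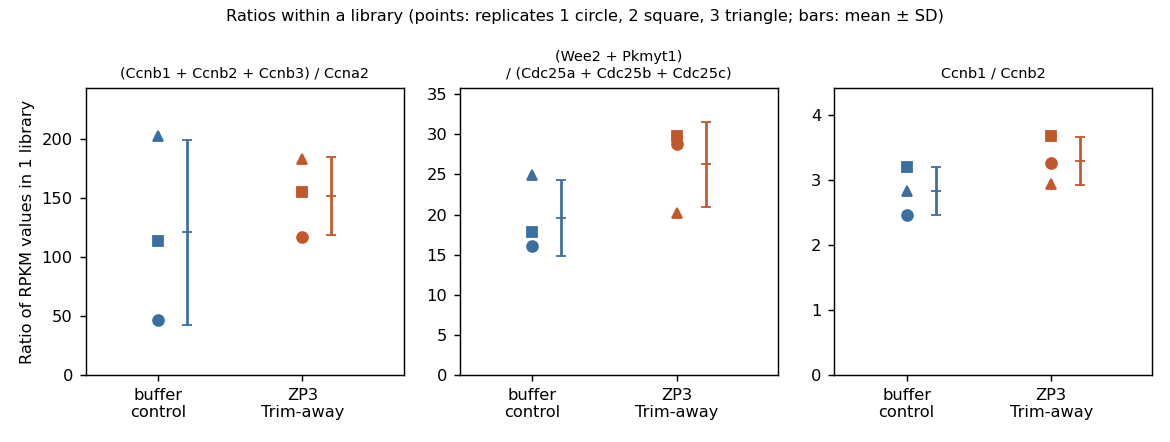
Ratio of RPKM within each library for Ccnb1 over Ccnb2, for Wee2 plus Pkmyt1 over the sum of the Cdc25 genes, and for the B-type cyclins over Ccna2, 1 point per library and bars for the group mean ± SD. All 3 ratios overlap between buffer control and ZP3 Trim-away.

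Over the 6 libraries, which share their group difference and scaling, Ccnb3 and Cdk1 had a Pearson correlation of 0.94 on the log2 scale. Cdc25a ran opposite to both, at -0.92 with Ccnb3 and -0.84 with Cdk1, and to Ccnb1 at -0.97. These are descriptions over 6 points. Of the 3459 genes averaging 10 RPKM or more, those most like Ccnb1 over the 6 libraries were Rab38 (0.99), ENSMUSG00000121396 (0.98) and Fbxw23 (0.98). Those most like Cdk1 were Zfp51 (1.00), AU016765 (0.99) and Gm10297 (0.99). Zfp51 was at 27.7, 38.2 and 28.3 RPKM in the controls, against 36.2, 44.4 and 43.5 RPKM after ZP3 Trim-away, with control replicate 2 again above ZP3 Trim-away replicate 1. Those most like Wee2 were Cfdp1, Sycp3 and Ggta1, each at 0.97, and each lowest in control replicate 1. All these genes were picked for their likeness over the same 6 libraries, so shared high and low libraries follow from the choice.

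The wider pathway was followed in 97 genes of 7 lists, of which 77 were tested. None reached an adjusted p of 0.05 in limma, and 16 (20.8%) had an unadjusted p under 0.05, 8 higher and 8 lower, beside 19.5% of all genes tested. The median log2 fold change over the 77 was 0.11, with 44 positive and 33 negative. Over all 9965 genes tested, 6709 were positive and 3256 negative, and the direction counts of each list below stand beside that share. In 16 of the 77 (20.8%) the groups did not overlap with ZP3 Trim-away higher, beside 20.3% of all genes tested. In 10 (13.0%) they did not overlap with it lower, beside 6.34%. The non-overlapping higher genes include Wee1, Ywhah and Cdkn1a, with control means of 0.0877, 0.625 and 0.549 RPKM. They reached the filter of 1 RPKM only through the ZP3 Trim-away group, which favours that direction. Wee1 and Ywhah are also among the 8 higher at an unadjusted p under 0.05. The non-overlapping lower genes averaged above 1 RPKM in both groups.

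Of the other cyclins, CDKs and CDK inhibitors, 11 of 18 were tested, 9 with a positive fold change, and the median was 0.42. Cdk2, the kinase of S phase and partner of cyclins A and E, was at 0.208, 9.36 and 7.21 RPKM in the controls, against 7.33, 7.51 and 9.60 RPKM after ZP3 Trim-away. Only control replicate 1 stood apart, and the log2 fold change of 0.96 ± 0.71 (limma, adjusted p = 0.497) was -0.02 without it. Cks2, the small subunit of the CDK1 complex, was the most abundant of the list at 479.8, 561.8 and 578.1 RPKM in the controls, against 432.9, 612.3 and 475.5 RPKM after ZP3 Trim-away, and the groups overlapped.

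Of the checkpoint kinases, WEE1 and 14-3-3 genes, 11 of 13 were tested, with a median of 0.04. Wee1, the somatic relative of Wee2, was at 0, 0.263 and 0 RPKM in the controls, against 2.51, 2.05 and 1.22 RPKM after ZP3 Trim-away. It was all but absent from the controls and present in each ZP3 Trim-away library, at under 1% of the Wee2 level. Its mean over all libraries reached the 1 RPKM needed for testing only through the ZP3 Trim-away group, so no p-value is given for it. Wee1 is still counted among the 11 tested and in their median. The same holds for Ywhah, at means of 0.625 RPKM in the controls and 1.93 RPKM after ZP3 Trim-away. Ywhae, a 14-3-3 protein that binds phosphorylated CDC25, was at 521.1, 521.1 and 476.1 RPKM in the controls, against 432.0, 478.0 and 497.9 RPKM after ZP3 Trim-away, with overlap.

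Of the kinases acting on CDC25 and WEE proteins and their regulators, 10 of 12 were tested, 7 with a negative fold change, and the median was -0.20. Only 4 of these 10 code for kinases, and the other 6 include Bora, Gpr3, Pde3a and regulatory subunits of protein kinase A. Plk1, the polo-like kinase that activates CDC25 and marks WEE1 for degradation, was the most abundant of the list. It was at 181.2, 193.5 and 177.8 RPKM in the controls, against 141.6, 140.2 and 169.4 RPKM after ZP3 Trim-away, which was lower without overlap (log2 fold change -0.29 ± 0.12, limma, adjusted p = 0.21). Akt1, a kinase upstream of CDC25B in mouse zygotes, was at 9.38, 10.6 and 12.7 RPKM in the controls, against 8.03, 5.32 and 6.59 RPKM after ZP3 Trim-away. It too was lower without overlap, with a log2 fold change of -0.64 ± 0.24 (limma, adjusted p = 0.192).

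Of Greatwall and the opposing phosphatases, 12 of 15 were tested, 10 with a positive fold change, and the median was 0.24. Arpp19, the Greatwall substrate that inhibits PP2A-B55, was at 78.3, 84.7 and 86.8 RPKM in the controls, against 106.3, 93.0 and 95.1 RPKM after ZP3 Trim-away. Ppp2r2d, a B55 subunit of that phosphatase, was at 3.01, 3.68 and 2.21 RPKM in the controls, against 5.11, 4.47 and 4.39 RPKM after ZP3 Trim-away. Both were higher without overlap, with log2 fold changes of 0.23 ± 0.12 and 0.53 ± 0.29 (limma, adjusted p = 0.32 and 0.354). That of Arpp19 was close to the median of all genes, 0.22, and was 0.045 with median ratio scaling and 0.042 with quantile normalization.

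Of the Mos-MAPK and cytostatic factor genes, 8 of 10 were tested, with a median of 0.00. Mapk3, which codes for the kinase ERK1, was at 27.2, 42.0 and 32.0 RPKM in the controls, against 53.6, 59.6 and 61.0 RPKM after ZP3 Trim-away. Every ZP3 Trim-away library lay above every control. The log2 fold change of Mapk3 was 0.79 ± 0.18, with the lowest adjusted p of the genes named from the lists by rule (limma, adjusted p = 0.0698). It passed when testing was limited to genes averaging 10 RPKM or more (limma, adjusted p = 0.0334), without control replicate 2 (0.95, limma, adjusted p = 0.0379) and when the control columns were left unseparated (0.91, limma, adjusted p = 0.00101). It did not pass under the other alternatives run, among them median ratio scaling (0.60, limma, adjusted p = 0.144), the length trend removed (0.47, limma, adjusted p = 0.234) and leaving out any 1 ZP3 Trim-away library (limma, adjusted p = 0.235 to 0.302). Fbxo43, whose product EMI2 holds the egg in metaphase, was at 115.0, 146.3 and 104.0 RPKM in the controls. After ZP3 Trim-away it was at 122.3, 127.7 and 105.0 RPKM, with overlap. Fbxo5 of this list, not picked by the rule, was higher without overlap at 0.73 ± 0.15 (limma, adjusted p = 0.0601). Its adjusted p was thus lower than that of Mapk3, as were those of Ccne2 and Ywhaq of other lists (limma, adjusted p = 0.0636 each).

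Of the CDK1 substrates of the nuclear envelope, chromosomes and spindle, 13 of 14 were tested, with a median of 0.15. Lmnb1, which codes for lamin B1 of the nuclear lamina, was at 8.76, 10.3 and 9.62 RPKM in the controls, against 5.98, 3.22 and 6.29 RPKM after ZP3 Trim-away. It was lower without overlap, with a log2 fold change of -0.81 ± 0.28 (limma, adjusted p = 0.165). The nucleoporin Nup35 was at 74.0, 89.8 and 93.1 RPKM in the controls, against 100.2, 104.2 and 96.6 RPKM after ZP3 Trim-away, higher without overlap (log2 fold change 0.23 ± 0.13, limma, adjusted p = 0.362). That fold change was close to the median of all genes, 0.22. It was 0.044 with median ratio scaling, 0.049 with quantile normalization and -0.0075 with the length trend removed.

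Of the transcription factors of G2/M genes and their cofactors, a list without the NF-Y subunits, 12 of 15 were tested, with a median of -0.23. Lin54, the subunit of the DREAM and MuvB complexes that binds TTTGAA, was at 11.9, 4.46 and 11.1 RPKM in the controls, against 4.18, 3.67 and 5.49 RPKM after ZP3 Trim-away. Control replicate 2 lay within the ZP3 Trim-away range, and the log2 fold change was -0.81 ± 0.37 (limma, adjusted p = 0.267). E2f5 was the most abundant, at 72.9, 51.1 and 43.3 RPKM in the controls, against 55.6, 64.4 and 52.3 RPKM after ZP3 Trim-away, with overlap.

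**Figure D5:**
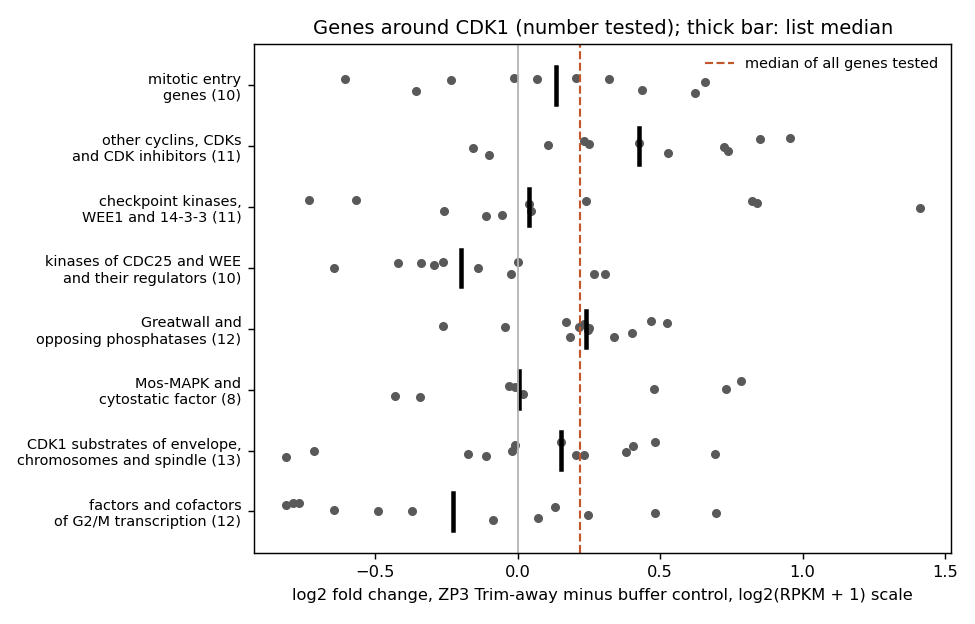
Log2 fold change (ZP3 Trim-away minus buffer control) of each tested gene of the mitotic entry genes and of the 7 pathway lists, 1 point per gene, with the median of each list and a line for the median of all genes tested. The list medians lie between -0.23 and 0.42, and no gene shown passed the test.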

How the data were processed

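Total RNA from pools of 13 zygotes was made into libraries with a low-input kit that primes cDNA from poly(A) tails. Tail length was not measured, and differences in it cannot be told apart here from differences in RNA amount. The submitters' processing notes name FastQC 0.11.9, Trimmomatic, HISAT2, SAMtools and the build GRCm39, while the study's methods name GRCm38. The authors deposited RPKM per gene, and the strand setting of the counting was not given in the sources used here. Control replicates 2 and 3 were separated from replicate 1 as described above, with none of the values below 0 afterwards. Exon lengths and totals recovered whole reads for 94.6% to 95.7% of values per library, so 3 reads at 1 kb correspond to 0.150 to 0.196 RPKM.

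Groups came from the treatment label. log2(RPKM + 1) was fitted in limma 3.58.1 (R 4.3.3) with a trended prior over the 9965 genes averaging 1 RPKM or more, two-sided, with Benjamini-Hochberg adjustment and a threshold of 0.05. Fold changes on this scale understate those of low genes. The replicates are labelled biological, but no separate collections are named, and the p-values therefore cover variation among the pools only. The median SD per gene was 0.44 in the controls and 0.20 after ZP3 Trim-away on the log2 scale. Members and lists were chosen with earlier results of these data known. Named by rule were all 10 members, and from each list every gene that passed, the largest absolute fold change and the most abundant gene. The 3 genes most like Ccnb1, Cdk1 and Wee2 were named as well. The fit was tested on simulated data with the same SD per gene in both groups, which does not cover the unequal spread given above. Alternatives were the columns as deposited, another pseudocount, 2 other filters, 4 scalings, a replicate block and leaving out each library. Motifs and 3′ ends were read from the GENCODE transcripts supplied, and promoters from RefSeq. The 72-base words of each member came from its longest GENCODE transcript. Python 3.11.15, pandas 2.3.3, numpy 2.4.6 and matplotlib 3.10.9 were used.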

Additional observations from a re-analysis of the deposited data

How the results depend on the processing

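The number of genes that differed was 63 as reported, 3707 with the columns as deposited, 19 with a pseudocount of 0.1, 0 without a filter (3323 at an unadjusted p under 0.05 in limma), 368 with a filter at 10 RPKM, 12 with median ratio scaling, 24 with quantile normalization, 15 with Trim21 left out of the totals and 32 with the length trend removed. Of the 63, 59 were higher and 4 lower, against 9 and 3 with median ratio scaling, 18 and 6 with quantile normalization, 13 and 19 with the length trend removed and 2537 and 1170 with the columns as deposited. Leaving out 1 library gave 0 to 300. It was 162, 300 and 125 without control replicates 1, 2 and 3, and 0 without any 1 of the ZP3 Trim-away libraries (1208, 1100 and 1238 at an unadjusted p under 0.05). With the columns as deposited 5 mitotic entry genes passed, Cdk1 (0.76), Cdc25a (-0.76), Ccna2 (-0.97), Ccnb3 (0.56) and Ccnb1 (0.24). Under the other alternatives 0 of the members tested did, which were 6 of the 10 with the filter at 10 RPKM. With the columns as deposited the lists, in the order of the text, had 4, 6, 7, 2, 3, 4 and 5 genes that passed. Of all genes tested, 37.3% did. With the filter at 10 RPKM, 1 of the other cyclins and CDKs, 1 checkpoint gene, 2 Mos-MAPK genes, 2 CDK1 substrates and 1 transcription factor passed. Of all 3459 genes tested with this filter, 368 did. Leaving out 1 library gave 0 to 1, 0 to 1 and 0 to 2 for the other cyclins and CDKs, the checkpoint genes and the Mos-MAPK genes, the higher values without control replicate 2. Without that library, 300 of all 10009 genes tested passed.

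Same-numbered libraries did not deviate together (correlations of -0.18, 0.00 and -0.20 over 3459 genes), so the numbers were not taken as pairs. With a replicate block 0 genes passed (1733 at an unadjusted p under 0.05 in limma), and Cdk1 kept its log2 fold change of 0.66 (adjusted p = 0.225).

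Log2 fold changes that turned sign, as ranges over leaving out 1 library, were those of Ccnb2 (-0.051 to 0.041), Ccna2 (-0.79 to 0.13), Cdc25b (-0.46 to 0.026), Cdc25c (-0.0090 to 0.60), Wee2 (-0.025 to 0.12), Cdk2 (-0.020 to 1.53), Cks2 (-0.25 to 0.0038), E2f5 (-0.092 to 0.28) and Fbxo43 (-0.14 to 0.11). With median ratio scaling, quantile normalization, Trim21 left out and the length trend removed, Wee2 was at -0.12, -0.17, -0.040 and -0.19 and E2f5 at -0.12, -0.14, -0.037 and -0.29. E2f5 was at -0.16 with the columns as deposited, Cdc25c at -0.10 with quantile normalization and Nup35 at -0.0075 with the length trend removed. The median over all genes was 0.06, -0.01, 0.13 and 0.01 under these 4 scalings, and that of the mitotic entry genes -0.05, -0.13, 0.03 and -0.09. The causes were not tested. Cdc25c and Pkmyt1 had the fewest reads, 46 to 244 per library. Their coefficients of variation within a group were 26.8% to 69.1%, where counting alone would give 8.16% to 10.6%.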
